A study of Mus musculus with 16 samples.

Results

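The 36 transcripts described here encode aminoacyl-tRNA synthetases of mouse skeletal muscle. They were chosen by gene symbol from a list of 20 cytosolic enzymes and 16 mitochondrial enzymes, the latter with symbols ending in 2. All 36 symbols were found among the 24354 gene rows of the resting table and among the 24327 rows with a usable name in the table after exercise. RNA was sequenced from quadriceps of male mice aged 4 months on a C57BL/6 background. The genotypes were wild type (WT) and HDAC3-KO, a knockout of the histone deacetylase HDAC3, referred to below as knockout. The labels name neither a Cre driver nor the cells in which the gene was removed, and the series' design text calls the muscles HDAC3-depleted. Each of the 4 groups held 3 libraries: wild type at rest, knockout at rest, wild type after exercise and knockout after exercise. Exercise was treadmill running in 3 bouts of 1 h at 10 m/min with 1 h of rest between bouts, and muscle was taken 2 h after the last bout. Whether each library is a different animal is not given in the labels, so p-values measure only the spread between these samples, which may be technical.

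Aminoacyl-tRNA synthetases join each amino acid to its matching tRNA, the step that sets the genetic code in translation. Nuclear genes encode 2 sets, one for translation in the cytosol and one for translation on mitochondrial ribosomes. Glycyl and lysyl enzymes of both compartments come from a single gene each, Gars and Kars, and the cytosolic glutamyl and prolyl activities sit in a single protein, Eprs. Several cytosolic synthetases are held in a multisynthetase complex by the scaffold proteins Aimp1, Aimp2 and Eef1e1. Many cytosolic synthetase genes are known targets of ATF4, the transcription factor of the integrated stress response, which acts through C/EBP-ATF response elements in their promoters.

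Values are FPKM, fragment counts scaled for transcript length and library size. Read depth was not given by the tables, so the spread between libraries was the only measure of error. The libraries' FPKM added up to 454359 at the least and 522584 at the most, with 10123 to 10544 genes at 1 FPKM or more. Hdac3 ranged from 23.7 to 33.3 FPKM over 6 wild-type libraries, and over 6 knockout libraries from 4.13 to 8.16 FPKM. Its difference was -1.99 (SE 0.17) at rest and -2.33 (SE 0.16) after exercise on the log2(FPKM + 1) scale (limma adjusted p = 0.00632 and 0.00152), and it passed in every fit with 1 library left out. Skeletal muscle markers such as Ckm and Acta1 were present, with a summed level between 65088 and 85511 FPKM over 10 genes. Genotypes were compared within each table, because the resting and exercised libraries came in separate tables and may have been normalized separately. The test was limma on log2(FPKM + 1) of genes with a mean of at least 1 FPKM, and a gene is said to have risen or fallen where its Benjamini-Hochberg adjusted p was at or under 0.05. All 36 synthetases passed the filter in both tables.

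In wild-type muscle at rest the cytosolic enzymes had a median level of 22.4 FPKM and the mitochondrial enzymes one of 5.59 FPKM. The glutamyl-prolyl enzyme Eprs was the highest of the cytosolic set at 108 ± 11.2 FPKM (SD, n = 3). The valyl enzyme Vars was the lowest, at 4.43 ± 1.41 FPKM, below the phenylalanyl subunit Farsa at 9.55 ± 0.933 FPKM. Among the mitochondrial enzymes Iars2, for isoleucine, stood at 26.2 ± 2.54 FPKM and Fars2, for phenylalanine, at 17.0 ± 0.651 FPKM. The glutamyl enzyme Ears2 (1.30 ± 0.275 FPKM), the valyl enzyme Vars2 (1.92 ± 0.493 FPKM) and the tryptophanyl enzyme Wars2 (2.47 ± 0.267 FPKM) lay near the filter. So did the prolyl enzyme Pars2, at 2.08 ± 0.305 FPKM. The listed level of the leucyl enzyme Lars2 exceeded that of every other member, at 386 ± 352 FPKM, and is described on its own below.

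At rest 5 of the 20 cytosolic synthetases rose in the knockout and none fell, and 1 of the 16 mitochondrial enzymes rose and none fell. Over all 10501 genes tested, limma called 3.65%, of which 2.3% higher and 1.34% lower. The enzymes that rose were Gars, Eprs, Nars, Aars and Lars in the cytosol and Pars2 in mitochondria. The size of the rise lay between 1.5-fold for Aars and 2.18-fold for Pars2. The authors' deposited table called the same 6 transcripts higher at rest (q at or under 0.05), and it also called Yars higher and Lars2 lower. Of the genes the authors tested at rest, 10.8% passed their q, 5.9% higher and 4.94% lower.

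Gars, the glycyl enzyme, had a log2 difference of 0.97 at rest, and with a pseudocount of 0.1 one of 0.99, where Pars2 reached 1.09. Wild type gave 35.4, 32.9 and 35.3 FPKM at rest, and knockout 82.7, 60.2 and 65.3 FPKM. The lowest knockout library thus stood far above the highest wild-type library. The mean of 34.6 ± 1.41 FPKM became 69.4 ± 11.8 FPKM, so that Gars rose 2.01-fold (log2 difference 0.97, SE 0.13, limma adjusted p = 0.0182). Eprs held 117, 111 and 95.2 FPKM in wild type and 233, 197 and 182 FPKM in knockout. The genotypes did not overlap, and the knockout libraries were more spread out. Eprs rose 1.90-fold (log2 difference 0.91, SE 0.13, limma adjusted p = 0.0184).

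Nars, the asparaginyl enzyme, held 48.5, 39.8 and 44.9 FPKM in wild type and 78.5, 72.4 and 71.7 FPKM in knockout at rest. Every knockout library was above every wild-type library, and the mean rose 1.67-fold (log2 difference 0.73, SE 0.10, limma adjusted p = 0.0184). Aars, the alanyl enzyme, held 26.0, 31.5 and 30.4 FPKM in wild type and 45.0, 43.6 and 43.7 FPKM in knockout. The knockout libraries lay close together, and Aars rose 1.5-fold (log2 difference 0.58, SE 0.10, limma adjusted p = 0.0297). Lars, the leucyl enzyme of the cytosol, held 25.2, 23.5 and 22.3 FPKM in wild type and 42.1, 36.1 and 32.3 FPKM in knockout. Its groups were also apart, with a rise of 1.56-fold (log2 difference 0.61, SE 0.12, limma adjusted p = 0.0405). Aars overlaps Ddx19b and Lars overlaps the pseudogene Rps19-ps4 in the RefSeq annotation of GRCm38.p6, and the sources used here do not say whether counting used strand, so reads of such partners may not be separable.

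Pars2, the mitochondrial prolyl enzyme, was low at rest and near the filter in wild type. It held 1.73, 2.18 and 2.32 FPKM in wild type and 4.90, 3.98 and 4.68 FPKM in knockout. The groups did not overlap and the mean of 2.08 ± 0.305 FPKM rose 2.18-fold, with knockout at 4.52 ± 0.482 FPKM (log2 difference 0.84, SE 0.14, limma adjusted p = 0.0245). Among the amino acids with a separate gene for each compartment, proline was the only one for which both enzymes, Eprs and Pars2, passed the test at rest.

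These resting calls rested on all 6 libraries. None of the 6 transcripts passed without wild-type library 2 or without knockout library 3. Gars alone passed without knockout library 1 or without knockout library 2, Eprs, Gars and Nars passed without wild-type library 3, and these 3 passed together with Mars without wild-type library 1. Over those fits the log2 difference stayed between 0.84 and 1.07 for Gars, between 0.81 and 0.99 for Eprs, between 0.66 and 0.80 for Nars, between 0.50 and 0.63 for Aars, between 0.51 and 0.70 for Lars and between 0.76 and 0.92 for Pars2. The highest adjusted p was 0.0906 for Gars, Eprs and Nars, 0.111 for Aars, 0.153 for Lars and 0.102 for Pars2 (limma).

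**Figure D1:**
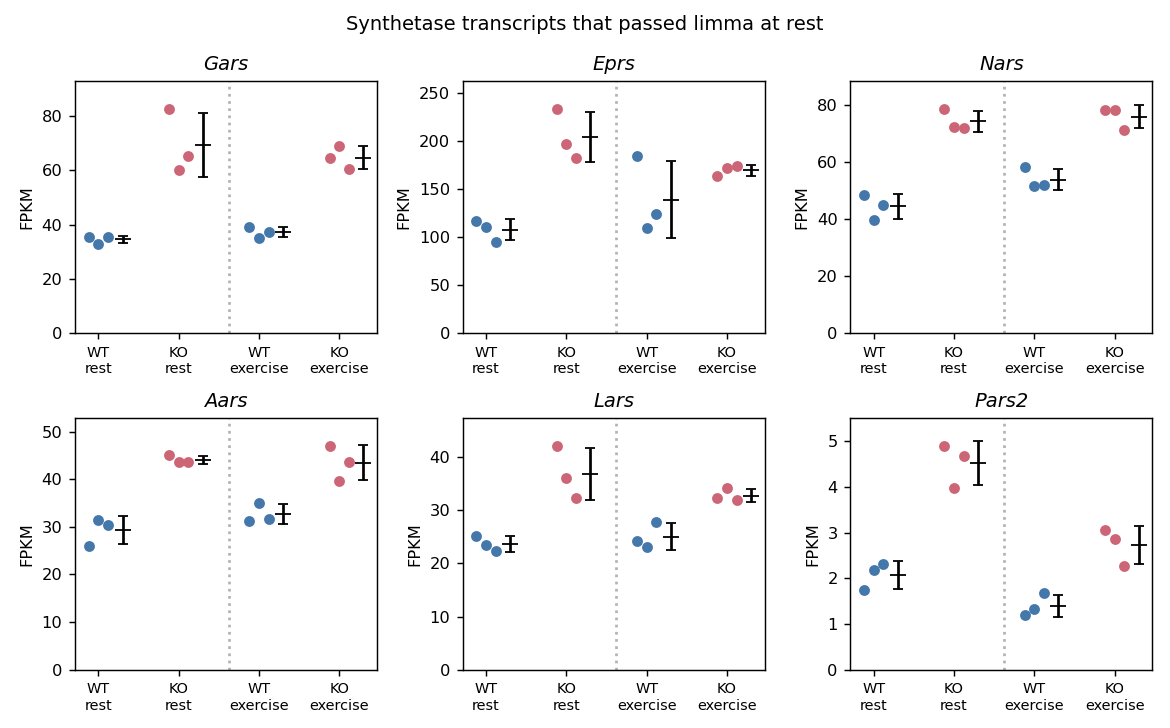
FPKM of the 6 synthetase transcripts that passed limma at rest, by group. Points are single libraries (blue wild type, red knockout) and black bars are the mean ± 1 SD over 3 libraries. The dotted line separates the tables, which may have been normalized separately. At rest the genotypes are apart in all 6 panels, and after exercise they overlap for Eprs only.

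The set was chosen with earlier results of these data known, and no test was made over it. Counts over all 20 cytosolic transcripts, the 5 that passed included, were as follows. The knockout libraries stood wholly above the wild-type libraries for 13 of the 20 cytosolic transcripts and wholly below them for 1 (Farsa), against 14.2% and 11.9% of all genes tested. The difference was above 0 for 17 of the 20, against 50.3% of all genes, and their median was 0.31, against a median of 0.0014 over all genes. At an unadjusted p under 0.05 in limma, 11 of the 20 cytosolic and 1 of the 16 mitochondrial transcripts were higher and 0 of the 36 lower, against 19.7% of all genes, 11% higher and 8.68% lower. Mars, the methionyl enzyme, came nearest to the threshold, with 24.1, 19.4 and 20.1 FPKM in wild type and 30.2, 28.4 and 31.2 FPKM in knockout (log2 difference 0.48, SE 0.11, limma adjusted p = 0.0643). Mars overlaps Ddit3 in the annotation, and Ddit3 itself measured 21.3 ± 15.2 against 33.6 ± 22.0 FPKM. Yars, the tyrosyl enzyme, had 16.3, 12.5 and 13.7 against 21.3, 21.5 and 17.1 FPKM (limma adjusted p = 0.12, q = 0.0298 in the authors' deposited table). Tars, Sars, Iars, Cars, Kars and Farsb also had groups that did not overlap, with log2 differences between 0.23 and 0.40.

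A few cytosolic enzymes stayed near 0 or on the other side. The arginyl enzyme Rars measured 26.8 ± 5.12 against 26.3 ± 2.09 FPKM and Vars 4.43 ± 1.41 against 4.38 ± 0.467 FPKM. The tryptophanyl enzyme Wars measured 13.1 ± 0.770 against 13.9 ± 2.67 FPKM, and the glutaminyl enzyme Qars 20.9 ± 2.36 against 18.6 ± 1.17 FPKM. The subunits of cytosolic phenylalanyl-tRNA synthetase differed in sign. Farsa, the catalytic subunit, held 8.56, 9.70 and 10.4 FPKM in wild type and 8.04, 8.16 and 8.03 FPKM in knockout, so all knockout libraries were lower (log2 difference -0.21, SE 0.11, limma adjusted p = 0.33). Farsb, the other subunit, held 32.5, 26.4 and 30.2 FPKM in wild type and 38.8, 32.7 and 33.6 FPKM in knockout, all higher (log2 difference 0.23, SE 0.12, limma adjusted p = 0.328). Farsb overlaps Sgpp2 in the annotation.

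The enzymes that rose lay both inside and outside the multisynthetase complex. Of the 8 enzymes of the complex, Eprs and Lars rose at rest and the median difference was 0.29, with a range from -0.16 for Qars to 0.91 for Eprs. Of the 12 enzymes outside it, Gars, Nars and Aars rose and the median was 0.33. No test of the difference between these sets was made.

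The mitochondrial set had a resting median difference of 0.14, and of 0.15 without Lars2. The difference was above 0 for 11 of the 16, against 50.3% of all genes. The knockout libraries stood wholly above the wild-type libraries for 2 of the 16 (12.5%), near the 14.2% of all genes, and wholly below for 0. Besides Pars2, the groups did not overlap for Mars2 alone, the methionyl enzyme, which held 3.33, 4.80 and 4.55 FPKM in wild type and 5.77, 6.01 and 5.04 FPKM in knockout (log2 difference 0.35, SE 0.15, limma adjusted p = 0.254). Tars2, for threonine, measured 8.37 ± 1.12 against 10.7 ± 1.52 FPKM, and Hars2, for histidine, 7.06 ± 1.15 against 8.68 ± 1.38 FPKM. Hars2 overlaps its cytosolic neighbour Hars in the annotation. Iars2 measured 26.2 ± 2.54 against 25.7 ± 2.37 FPKM, Fars2 17.0 ± 0.651 against 17.1 ± 3.78 FPKM and Wars2 2.47 ± 0.267 against 2.30 ± 0.365 FPKM. For these 3 the difference was smaller than the spread between libraries. Ears2 measured 1.30 ± 0.275 against 1.64 ± 0.135 FPKM and was not tested by the authors.

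**Figure D2:**
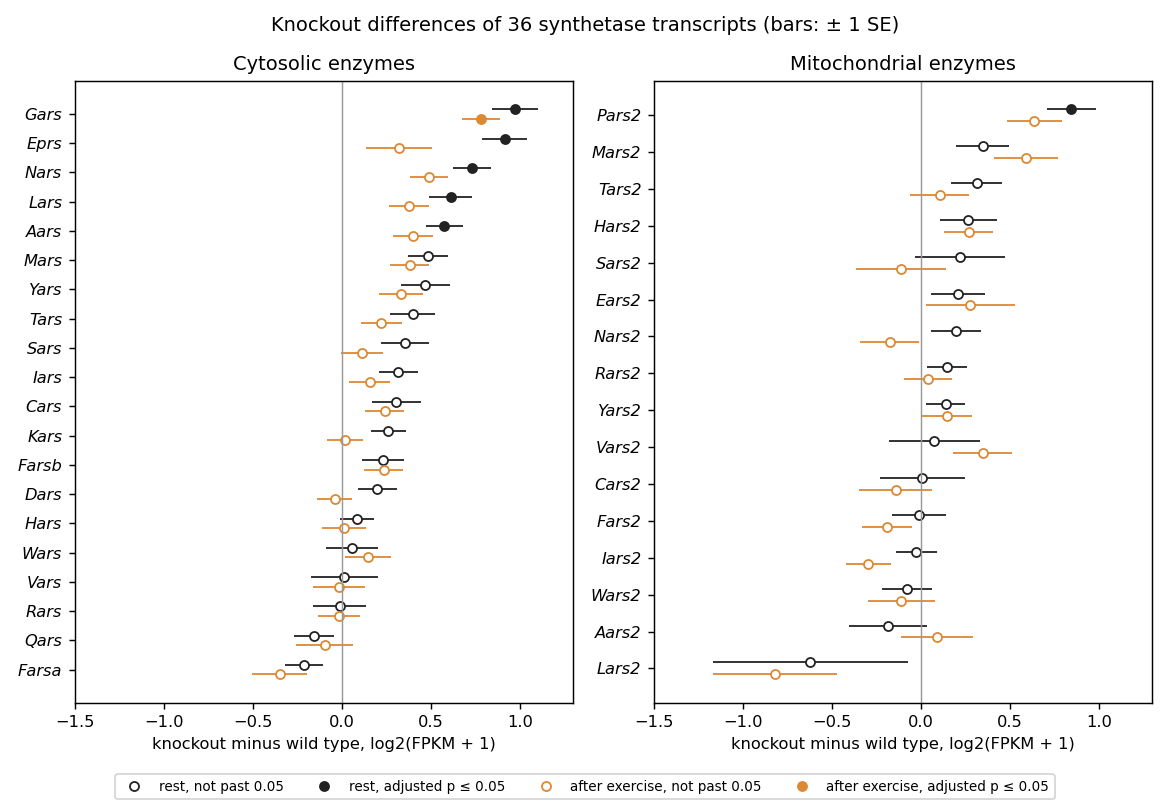
Knockout minus wild type on the log2(FPKM + 1) scale for the 20 cytosolic (left) and 16 mitochondrial (right) synthetases, at rest (black) and after exercise (orange), ordered by the resting value. Bars are ± 1 SE and filled points passed limma at an adjusted p of 0.05 (5 cytosolic and 1 mitochondrial at rest, Gars alone after exercise).

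Enzymes for the same amino acid could be set side by side across compartments in 17 pairs, in which Eprs and Fars2 each enter as 2 pairs. On the log2(FPKM + 1) scale the cytosolic difference was the larger in 13 pairs at rest and in 11 pairs after exercise. This scale understates the change of low transcripts, as most mitochondrial ones were. By the ratio of mean FPKM, Pars2 (2.18-fold) exceeded Eprs (1.90-fold) at rest. After exercise Ears2 (1.42-fold) exceeded Eprs (1.22-fold) by that ratio. Both pairs are counted above as larger in the cytosol. At rest the values for alanine were 0.58 for Aars and -0.19 for Aars2, and those for leucine 0.61 for Lars and -0.62 for Lars2. Both mitochondrial values turned on 1 library: Aars2 stood at 0.01 without wild-type library 3 and Lars2 at 0.08 without wild-type library 1. For asparagine the values were 0.73 for Nars and 0.20 for Nars2. The histidyl, arginyl and valyl pairs were among those with the larger value on the mitochondrial side, with 0.08 for Hars against 0.26 for Hars2. Differences between paired enzymes were not tested.

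**Figure D3:**
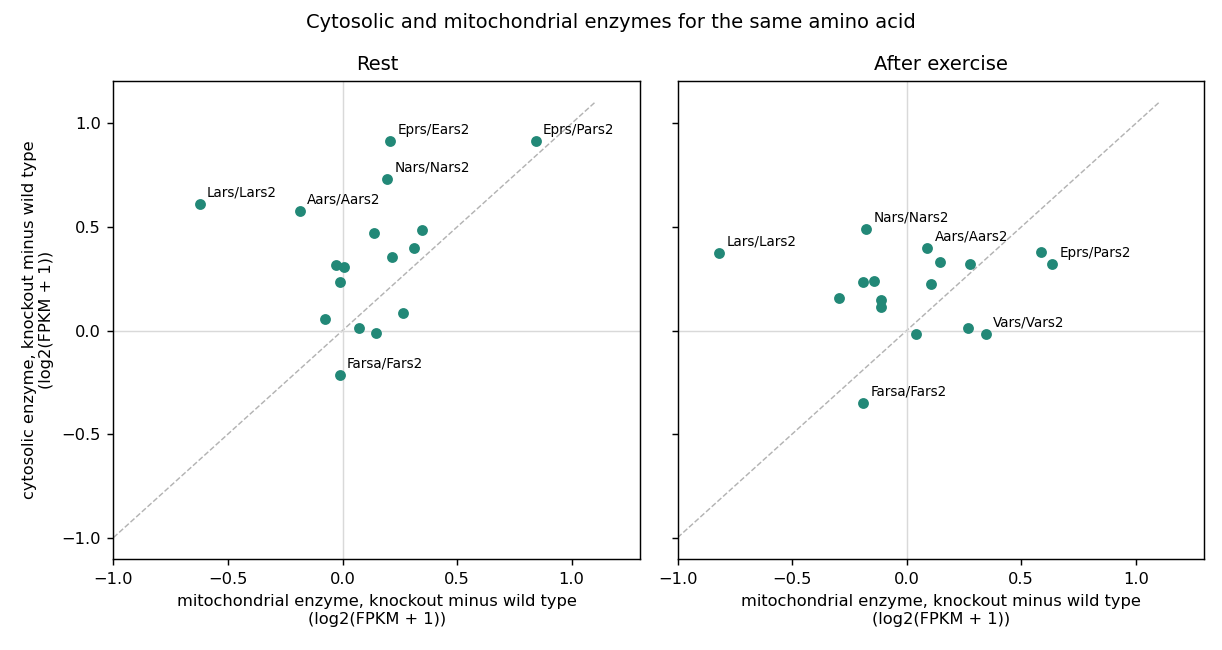
Knockout minus wild type, log2(FPKM + 1), of the cytosolic enzyme (vertical) against the mitochondrial enzyme for the same amino acid (horizontal), at rest (left) and after exercise (right); each point is 1 of 17 pairs. Points above the dashed line of equal values have the larger difference in the cytosol on this scale, as 13 pairs did at rest.

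Promoters are shown for cytosolic enzymes with a match to the core letters of the response element named above, and for Eprs. RefSeq promoter windows of GRCm38.p6, from 250 bases before to 50 bases after the start site, were found for 27 of the 36 members, 13 cytosolic and 14 mitochondrial. They were searched on both strands for TGATGNAA, the core of the C/EBP-ATF response element. The motif was present in 5 of the 13 cytosolic promoters and in 0 of the 14 mitochondrial promoters, against 4.51% of 27025 genes with such a window. For the mitochondrial promoters, 0 of 14 is near that share and does not set them apart from other genes. The build differs from the mm9 used by the authors, so these are reference positions and not coordinates of the deposited values. Capitals in the sequences mark matches to the motif or to its reverse complement, and Eprs, which rose at rest, has no match. The windows are chr6:55037751-55038050 for Gars on the plus strand, chr8:111033592-111033891 for Aars on the plus strand, chr4:129189653-129189952 for Yars on the plus strand, chr15:11399609-11399908 for Tars on the minus strand, chr13:49681880-49682179 for Iars on the plus strand and chr1:185362794-185363093 for Eprs on the plus strand.
Gars: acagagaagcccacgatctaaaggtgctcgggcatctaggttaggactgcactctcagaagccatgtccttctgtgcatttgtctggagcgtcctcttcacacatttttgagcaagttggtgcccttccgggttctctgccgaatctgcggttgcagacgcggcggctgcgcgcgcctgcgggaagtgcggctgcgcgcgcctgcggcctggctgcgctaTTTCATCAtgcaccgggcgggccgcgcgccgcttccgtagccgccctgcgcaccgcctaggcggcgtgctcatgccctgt
Aars: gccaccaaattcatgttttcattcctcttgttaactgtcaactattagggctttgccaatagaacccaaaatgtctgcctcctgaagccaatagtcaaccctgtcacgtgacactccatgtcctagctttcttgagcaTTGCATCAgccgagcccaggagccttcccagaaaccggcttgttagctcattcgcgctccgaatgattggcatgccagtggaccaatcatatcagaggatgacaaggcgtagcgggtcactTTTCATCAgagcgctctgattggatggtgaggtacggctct
Yars: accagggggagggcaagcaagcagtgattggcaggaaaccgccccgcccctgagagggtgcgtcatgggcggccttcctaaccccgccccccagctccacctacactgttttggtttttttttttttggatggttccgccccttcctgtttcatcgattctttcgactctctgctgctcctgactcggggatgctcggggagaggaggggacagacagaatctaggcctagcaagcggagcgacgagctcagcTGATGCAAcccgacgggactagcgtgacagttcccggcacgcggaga
Tars: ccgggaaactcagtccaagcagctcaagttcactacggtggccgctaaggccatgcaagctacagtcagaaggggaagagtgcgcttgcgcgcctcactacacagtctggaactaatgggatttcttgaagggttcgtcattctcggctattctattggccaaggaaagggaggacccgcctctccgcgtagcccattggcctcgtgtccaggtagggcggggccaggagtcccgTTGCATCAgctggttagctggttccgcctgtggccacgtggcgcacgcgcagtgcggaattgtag
Iars: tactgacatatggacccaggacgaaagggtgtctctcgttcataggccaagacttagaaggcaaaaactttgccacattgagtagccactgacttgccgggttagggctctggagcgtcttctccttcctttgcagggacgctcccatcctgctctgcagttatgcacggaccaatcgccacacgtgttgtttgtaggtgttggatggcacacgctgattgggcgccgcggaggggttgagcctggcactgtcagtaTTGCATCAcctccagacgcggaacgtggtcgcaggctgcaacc
Eprs: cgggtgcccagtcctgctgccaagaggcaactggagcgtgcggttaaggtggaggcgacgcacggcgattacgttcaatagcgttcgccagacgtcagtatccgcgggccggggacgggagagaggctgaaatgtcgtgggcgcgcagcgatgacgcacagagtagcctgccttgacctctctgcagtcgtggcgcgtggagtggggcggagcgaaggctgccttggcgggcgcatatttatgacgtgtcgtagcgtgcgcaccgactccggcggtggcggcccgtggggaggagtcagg

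Positions are those of the match's first letter in the printed window, counted from the start site. Aars held 2 matches, at 112 bases before and 9 bases after the start, and the other 4 genes held 1 each. The match began 30 bases before the start in Gars and 15 bases before it in Tars, and 3 bases after it in Yars and 7 in Iars. The 5 genes with a match had resting differences of 0.97 for Gars, 0.58 for Aars, 0.47 for Yars, 0.40 for Tars and 0.32 for Iars. The 8 cytosolic genes searched without a match ranged from -0.21 for Farsa to 0.91 for Eprs, with a median of 0.25. A match is a description of the letters and not evidence of binding. Lars, Nars and Pars2, which also rose, were not among the windows searched.

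After exercise Gars was the only synthetase that passed limma, against 2.71% of 10360 genes called, 1.19% higher and 1.53% lower. Gars held 39.3, 35.2 and 37.3 FPKM in wild type and 64.6, 69.0 and 60.7 FPKM in knockout. The groups were far apart, and Gars rose 1.74-fold (log2 difference 0.78, SE 0.11, limma adjusted p = 0.0168). That call was lost in 5 of the 6 fits with 1 library left out and held without knockout library 3; the adjusted p ranged from 0.0445 to 0.0737, the latter without wild-type library 2 (limma). Nars held 58.1, 51.4 and 51.8 FPKM in wild type and 78.2, 78.0 and 71.2 FPKM in knockout, a wide gap that missed the threshold (log2 difference 0.49, SE 0.11, limma adjusted p = 0.0562). Pars2 held 1.20, 1.34 and 1.67 FPKM in wild type and 3.06, 2.87 and 2.27 FPKM in knockout, again without overlap (log2 difference 0.64, SE 0.16, limma adjusted p = 0.0794).

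The authors' deposited table called 4 synthetases higher after exercise, Gars, Nars, Pars2 and Mars2, and Lars2 lower, where 9.57% of the genes they tested passed, 4.66% higher and 4.91% lower. Mars2 held 2.88, 5.04 and 3.23 FPKM in wild type and 5.88, 5.87 and 6.13 FPKM in knockout (limma adjusted p = 0.144, q = 0.0171 in the authors' deposited table). The knockout libraries were tight and all above the wild-type libraries. Aars measured 32.6 ± 2.13 against 43.5 ± 3.70 FPKM, Mars 23.2 ± 0.835 against 30.5 ± 2.60 FPKM, Lars 25.0 ± 2.47 against 32.7 ± 1.20 FPKM and Yars 15.7 ± 0.483 against 20.1 ± 2.60 FPKM. In each of these 4 the genotypes did not overlap, and limma adjusted p lay between 0.119 and 0.21. Over the cytosolic set 9 of 20 transcripts were wholly higher and 1 wholly lower in knockout, against 12% and 12.6% of all genes. Their difference was above 0 for 15 of 20, against 50.6% of all genes, with a median of 0.19. Among the 16 mitochondrial transcripts 3 were wholly higher, Mars2, Pars2 and Vars2, and 2 wholly lower, Iars2 and Lars2. Their median was 0.07, and -0.03 without knockout library 3. At an unadjusted p under 0.05 in limma, 6 cytosolic and 2 mitochondrial transcripts were higher and 2 mitochondrial transcripts lower, against 8.92% of all genes higher and 9.51% lower. The lower transcript of the cytosolic set was Farsa, with 9.93, 10.1 and 9.84 FPKM in wild type and 9.28, 6.10 and 7.71 FPKM in knockout (limma adjusted p = 0.278).

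For Eprs, the genotype difference was also compared between the tables. After running it held 184, 109 and 123 FPKM in wild type and 163, 171 and 173.5 FPKM in knockout. Wild-type library 1 exceeded all knockout libraries, and the groups overlapped (log2 difference 0.32, SE 0.19, limma adjusted p = 0.404). Without that library the difference after exercise was 0.54 for Eprs (limma adjusted p = 0.117). The difference of differences, exercise minus rest, was -0.59 (SE 0.24, unadjusted p = 0.0304, limma adjusted p = 0.925). It was above 0 for 3 of the 20 cytosolic and 6 of the 16 mitochondrial transcripts, against 46.9% of 10194 genes. The medians were -0.15 and -0.13, against -0.02 over all genes. No synthetase passed this limma contrast, and Eprs was the only member at an unadjusted p under 0.05. Without exercised wild-type library 1, resting knockout library 1 or exercised knockout library 1, 0 of the 36 were. Over all genes 0 passed, with 501 genes, 4.91%, at an unadjusted p under 0.05. Running against rest was not tested, since the tables may have been scaled separately. Set side by side, the wild-type mean of Nars was 44.4 FPKM in the resting table and 53.8 FPKM in the exercise table. That of Pars2 was 2.08 and 1.40 FPKM.

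Lars2 stood apart from the other members by its level and its spread. At rest it held 792, 163 and 201 FPKM in wild type and 245, 168 and 173 FPKM in knockout. Wild-type library 1 was the single high library, and the groups overlapped (log2 difference -0.62, SE 0.55, limma adjusted p = 0.587, q = 0.00119 in the authors' deposited table). Without that library the sign turned, with a log2 difference of 0.08 for Lars2 (limma adjusted p = 0.844). After exercise it held 585, 378 and 361 FPKM in wild type and 136, 333 and 319 FPKM in knockout. All knockout libraries were lower, one of them by far (log2 difference -0.82, SE 0.35, limma adjusted p = 0.265, q = 0.00343 in the authors' deposited table). Rn45s, the ribosomal RNA precursor, was also highest in wild-type library 1 of each table, at rest nearly level with wild-type library 3. It held 354, 156 and 344 FPKM in wild type and 169, 155 and 161 FPKM in knockout at rest, and 1252, 635 and 211 FPKM in wild type and 247, 229 and 341 FPKM in knockout after exercise. The part of ribosomal RNA content in the Lars2 values was not tested. Lars2 also overlaps the locus Gm46137 in the annotation.

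**Figure D4:**
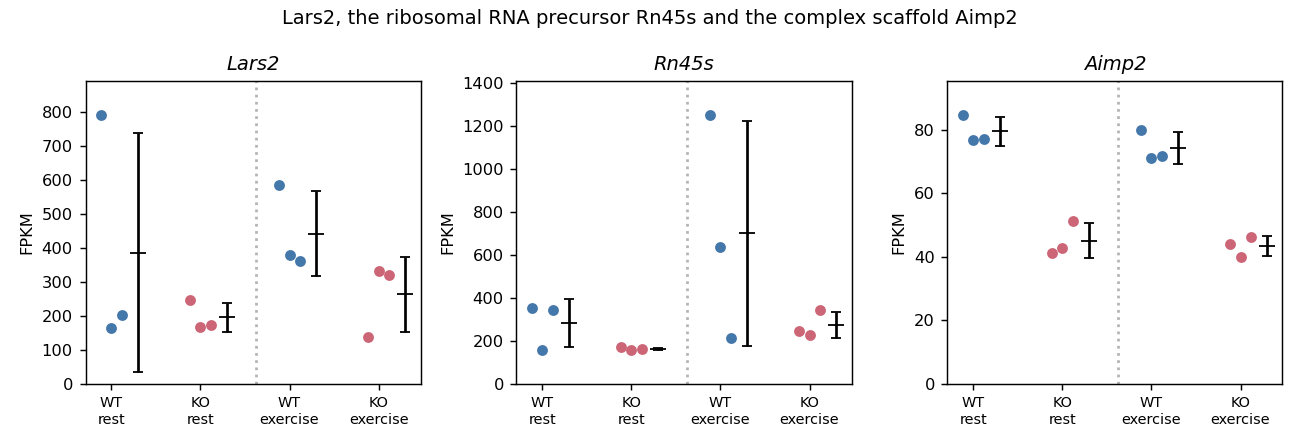
FPKM of the mitochondrial leucyl enzyme Lars2, the ribosomal RNA precursor Rn45s and the complex scaffold Aimp2, by group. Points are single libraries (blue wild type, red knockout) and black bars the mean ± 1 SD over 3 libraries. Tables left and right of the dotted line may have been normalized separately. Lars2 and Rn45s are highest in wild-type library 1 of each table, with Rn45s at rest 354 FPKM there and 344 FPKM in wild-type library 3; the Aimp2 groups are apart in both tables.

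Proteins that work with the synthetases were followed in a list of 20 genes, of which 19 were in the tables and 18 tested. At rest 1 rose, 1 fell and 16 did neither, against 2.3% of all genes higher and 1.34% lower. After exercise 0 rose, 1 fell and 17 did neither, against 1.19% and 1.53%. At an unadjusted p under 0.05 in limma 2 were higher and 3 lower. Of the 16 that the authors tested after exercise, their deposited table called 1 higher and 2 lower. Aimp2, the scaffold of the multisynthetase complex, moved the other way from Eprs and Lars, which it holds. It held 84.7, 76.8 and 76.9 FPKM in wild type and 41.1, 42.8 and 51.2 FPKM in knockout at rest. After exercise the values were 80.0, 71.2 and 71.6 FPKM in wild type and 44.0, 39.9 and 46.1 FPKM in knockout. The genotypes were well apart in both tables. Its level fell in both tables, by a log2 difference of -0.81 (SE 0.11, limma adjusted p = 0.0182) in resting muscle and of -0.76 (SE 0.11, limma adjusted p = 0.0184) in exercised muscle. The other scaffolds gave smaller differences, with Aimp1 at 77.0 ± 8.37 against 65.0 ± 2.88 FPKM and Eef1e1 at 15.4 ± 1.76 against 13.8 ± 2.76 FPKM at rest. Aimp2 overlaps Eif2ak1 in the annotation, and Eif2ak1 measured 19.1 ± 2.52 against 17.7 ± 1.24 FPKM at rest. The resting Aimp2 call was lost without wild-type library 2 (limma adjusted p = 0.0906), knockout library 1 (0.067) or knockout library 2 (0.0535), and the call after exercise held only without knockout library 3 (0.0496), with values up to 0.0748 without wild-type library 1.

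Gatb is a subunit of the mitochondrial amidotransferase that, after Ears2 has charged the tRNA with glutamate, turns it into glutaminyl-tRNA. It held 8.96, 7.76 and 6.54 FPKM in wild type and 12.9, 14.1 and 14.2 FPKM in knockout, which was a rise in resting muscle (log2 difference 0.76, SE 0.13, limma adjusted p = 0.0264). The groups did not overlap. Gatb overlaps the locus Gm46809 in the annotation. Its partners Gatc and Qrsl1 measured 11.9 ± 0.915 against 12.4 ± 0.770 FPKM and 11.6 ± 0.944 against 11.5 ± 1.67 FPKM. After exercise Gatb measured 7.39 ± 1.56 against 11.3 ± 0.239 FPKM (limma adjusted p = 0.116). Without wild-type library 2 the resting limma adjusted p of Gatb was 0.115, and it was under 0.05 in 1 of 6 such fits, that without wild-type library 1. Prorsd1, whose product is related to an editing domain of prolyl-tRNA synthetase, measured 7.89 ± 0.834 against 4.98 ± 0.173 FPKM after exercise (limma adjusted p = 0.0565, q = 0.0246 in the authors' deposited table). The peptidyl-tRNA hydrolase Ptrh2 measured 5.04 ± 0.302 against 7.34 ± 0.146 FPKM at rest (limma adjusted p = 0.0566).

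Translation factors act on charged tRNA and the ribosome. Of 21 cytosolic factors tested, 1 rose at rest, 0 fell and 20 did neither, a share near the 3.65% of all genes. At an unadjusted p under 0.05 in limma 3 were higher and 1 lower. Of the 20 that the authors tested at rest, their deposited table called 1 higher and 1 lower. The latter was the kinase Eif2ak2 (2.15 ± 0.177 against 1.26 ± 0.193 FPKM, limma adjusted p = 0.113). After exercise limma called 0 of the 21, with 0 at an unadjusted p under 0.05, and the authors called 0 of the 18 they tested. The gene that rose was Eif2s2, the beta subunit of the initiation factor that brings initiator tRNA to the ribosome. It measured 56.4 ± 3.64 against 90.8 ± 11.4 FPKM (log2 difference 0.67, SE 0.12, limma adjusted p = 0.0294, 0.129 without wild-type library 2, and not called in any fit with 1 library left out). The list median was 0.01 at rest, against 0.31 for the cytosolic synthetases. Of 9 mitochondrial translation factors, among them the elongation factor Tufm, 0 were called in either table by limma or by the authors, with 0 at an unadjusted p under 0.05 at rest and 1, Gfm2, lower after exercise. Their median difference was 0.15 at rest and 0.06 after exercise.

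Of 26 listed genes of the ATF4 axis, chosen with earlier results of these data known, 20 were tested. At rest 6 rose, 0 fell and 14 did neither, against 2.3% of all genes higher and 1.34% lower, with a list median of 0.82. After exercise 5 rose, 0 fell and 15 did neither, against 1.19% and 1.53%, with a list median of 0.61. Mthfd2, an enzyme of mitochondrial one-carbon metabolism, showed the largest rise of the list, with 1.63, 1.44 and 2.35 FPKM in wild type and 47.2, 23.8 and 41.7 FPKM in knockout at rest. Atf5, Slc7a5, Eif4ebp1 and Sesn2 also rose at rest, with log2 differences of 1.40, 1.54, 1.04 and 1.03. Their limma adjusted p was 0.00688, 0.0113, 0.0182 and 0.0263. The genes that rose after exercise were Mthfd2, Atf5, Psat1, Slc7a5 and Aldh18a1. Atf4 itself, in the resting table, held 144, 125 and 137 FPKM in wild type and 265, 212 and 213 FPKM in knockout, all knockout libraries being higher (log2 difference 0.75, SE 0.12, limma adjusted p = 0.023, 0.11 without wild-type library 2). After exercise Atf4 measured 220 ± 39.7 against 299 ± 17.9 FPKM and did not pass (limma adjusted p = 0.154, q = 0.0927 in the authors' deposited table). Its knockout library 1 was the highest at rest, as it was for Gars, Eprs, Nars, Aars, Lars and Pars2. After exercise knockout library 1 was again the highest for Atf4, Nars, Aars and Pars2, but not for Gars, Eprs or Lars. The share of all genes with this order was not counted, and a link to Atf4 was not tested. Asns, the asparagine synthetase that supplies the substrate of Nars, held 0.278, 1.23 and 0.727 FPKM in wild type and 5.20, 1.78 and 3.03 FPKM in knockout at rest (limma adjusted p = 0.0839, q = 0.00384 in the authors' deposited table). After exercise Asns measured 1.13 ± 0.493 against 2.32 ± 0.224 FPKM (limma adjusted p = 0.125, q = 0.0604 in the authors' deposited table).

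Other cell types and library traits were read from marker lists. The 8 fibroblast and matrix markers summed to between 457 and 617 FPKM in wild type and between 293 and 482 FPKM in knockout at rest. After exercise their sums were 289 to 423 FPKM in wild type and 281 to 480 FPKM in knockout. The immune markers, 11 of 12 in the tables, summed to between 55.6 and 525 FPKM in wild type and between 35.0 and 65.9 FPKM in knockout at rest, the highest being wild-type library 2. After exercise these ranges were 32.5 to 41.0 and 51.0 to 381 FPKM, with Cd3e listed at 0 in that table. The highest was exercised knockout library 3, and in both high libraries the neutrophil genes S100a8 and S100a9 held most of the sum. After exercise Ptprc, Cd68, Adgre1, Csf1r, Itgam and Lyz2 were each higher in every knockout library than in any wild-type library. Lyz2 measured 26.3 ± 6.22 against 50.3 ± 12.3 FPKM there (q = 0.00132 in the authors' deposited table). At rest the genotypes overlapped for each of these genes, and after exercise they did for S100a8, S100a9, Cd79a and Ms4a1. Without resting wild-type library 2 the log2 difference of Gars was 0.94, and no synthetase passed (limma adjusted p = 0.0906 for Gars). Without exercised knockout library 3 the difference of Gars was 0.83 (limma adjusted p = 0.0445). The other immune markers named stayed higher in the remaining exercised knockout libraries, so this fit cannot show the part of immune content. Endothelial markers gave 60.6 to 67.4 against 63.8 to 64.8 FPKM at rest. In bulk muscle fewer cells of a type and less RNA per cell cannot be told apart, and the part of these lists in the synthetase values was not tested.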

How the data were processed

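The 12 RNA-seq libraries of quadriceps were used, and 4 GRO-seq libraries were not analysed here. The submitters' processing notes name TopHat2, Bowtie, Cuffdiff, HOMER and the build mm9; their roles and versions, the annotation and the use of strand are not given in the sources used here. The authors deposited 1 table per condition with FPKM per library and group means, and with the p-value and q-value of their own comparison, copied here as the authors' deposited table. The name of each table gave rest or exercise, and its column names gave genotype and replicate; 0 per-sample columns were left unmatched. A spreadsheet had turned 27 names of the exercise table into dates, and these rows were left out. Genes whose deposited p was below 1 were counted as tested in the authors' comparison, 9204 in the resting table and 9037 in the other.

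limma 3.58.1 in R 4.3.3 was run on log2(FPKM + 1) with a pseudocount of 1, moderated variances with a mean-variance trend and two-sided tests, adjusted over all genes with a mean of at least 1 FPKM over the 6 libraries. These differences understate the change of low genes. The test was first run on simulated data with independent noise, which checks the computation and not the calls made here. The contrast of knockout differences used all 12 libraries. Depth was unknown: in small RNA genes the log2 ratios of 10 library pairs had a median interquartile range of 0.87, so no whole reads were recovered. No 2 libraries shared more than 1 identical value among expressed genes. All 36 members were found in RefSeq (GRCm38.p6), 1 of them (Mars) by an older symbol; 16 overlap another gene there.

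Members and lists were chosen with earlier results of these data known. Members were named in full where they passed limma or the authors' q, or had a limma adjusted p between 0.05 and 0.1. Those with the highest or lowest levels of their class were also named. From other lists genes of low p were named, and further genes by function, such as Asns and the partners of Aimp2 and Gatb. Alternatives were other pseudocounts, filters, scaling, no trend, a replicate block, leaving out each library, and the authors' q.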

Additional observations from a re-analysis of the deposited data

How the results depend on the processing

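Counts of calls changed with the libraries used, the block and the call rule. Without 1 library, at rest limma called between 19 (without wild-type library 2) and 208 genes of all, against 383 with 6 libraries, and between 0 and 4 synthetases, against 6. After exercise it called between 44 and 73 genes, against 281, and between 0 and 1 synthetases, against 1. For the contrast of exercise and rest 0 synthetases passed in any fit, and between 0 and 1 genes of all did, the 1 being Ndufs5 without exercised wild-type library 3. No filter gave 247 genes at rest (4 synthetases, without Lars and Pars2) and 109 after exercise. Rescaling libraries by their median gave 2 synthetases after exercise, Gars and Nars (limma adjusted p = 0.0472), and 5 at rest, without Lars (0.0502). Omitting the variance trend also ended the call of Lars (0.0595). A filter at 5 FPKM, which leaves out Pars2, added Mars (limma adjusted p = 0.0479). The authors' q gave 998 genes at rest and 865 after exercise, with 8 and 5 synthetases.

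With a replicate block limma called 36 genes at rest and 114 after exercise, and 1 synthetase (Eprs) and 0. The numbers are not shown to pair the samples: deviations of same-numbered libraries correlated by 0.037 to 0.052 at rest and by -0.254 to 0.017 after exercise. At rest every library correlated best with its own number, after exercise not. No member called by limma with 6 libraries changed sign in any alternative; of members not called by limma up to 6 did in a fit, Lars2 among them. The median of the mitochondrial set after exercise was -0.05 with the filter at 5 FPKM and -0.03 without knockout library 3, against 0.07. The cause of these changes was not tested. With 3 libraries a group and unknown depth, low members such as Ears2 are the least certain.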
